A study of Mus musculus with 28 samples.

Results

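The transcripts described here are those of 10 genes of the axonal cytoskeleton and of axon growth, measured along the development of the mouse peripheral nerve. They were chosen by name, with earlier results of these data known, and no measured value enters the choice: Nefl, Nefm, Nefh, Ina, Prph, Tubb3, Stmn2, Gap43, Map1b and Uchl1. All 10 were found among the 41605 gene identifiers of the count table, and all 10 passed the filter on low counts that left 17700 genes for testing.

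Bulk poly-A RNA sequencing was done on nerves of C57BL/6J wild-type mice, which were not perfused. There were 7 stages with 4 libraries each, named by the labels as E13, E17 (embryonic day), P1, P5, P14, P24 and P60 (postnatal day). No stage carried a transgene, a deletion or a treatment. The paper states that 2 libraries of each stage came from male and 2 from female mice. Which ones is not given by the sample labels, and sex did not enter the tests. Each E13 library pooled several kinds of nerve, dissected distal to the dorsal root ganglia and left unstripped, from 2 embryos. Each E17 library pooled sciatic nerves from 2 embryos, and each postnatal library held the sciatic nerves of 1 mouse. From E17 on the outer sheaths were stripped away, so that mainly the endoneurium with its axons and Schwann cells remained. For E13 against any other stage, the effect of age cannot be told apart from that of the nerves sampled and of their dissection.

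The long axons of a peripheral nerve belong to neurons whose cell bodies lie in ganglia or in the spinal cord. Their caliber is set largely by neurofilaments, heteropolymers of the light, medium and heavy subunits (encoded by Nefl, Nefm and Nefh) with α-internexin (Ina) or peripherin (Prph). Microtubules and their partners, such as the neuronal β-tubulin of Tubb3, the tubulin-binding protein of Stmn2 and the microtubule-associated protein of Map1b, serve growth and transport, and GAP-43 is a membrane protein of growth cones. Uchl1 encodes an abundant neuronal deubiquitinase that is widely used to stain nerve fibers. Most messenger RNA of a neuron stays in its cell body, but a part is carried into the axon, and some of these genes, Gap43 and Map1b among them, are also known to be transcribed by Schwann cells. In bulk tissue, fewer cells or axons of a type and less RNA per cell cannot be told apart.

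Total counts per library ran from 13899895 to 37662780. Levels are given as CPM, counts scaled to a common library size after TMM normalization, and n is 4 libraries for every mean and SD. Some libraries stood apart within their stage. The GC content trend, the slope of a library's log2 deviation from its stage mean per 10 percentage points of transcript GC, was -0.93 in E13 replicate 1, 0.72 in E13 replicate 4 and -0.42 in P1 replicate 1, and within ±0.2 in the other 25. Skeletal muscle markers summed to 581 CPM in E13 replicate 2 and to between 26.5 and 59.1 CPM in the other 3 E13 libraries. Sympathetic neuron markers at E13 summed to 47, 94.1, 277 and 523 CPM in replicates 1 to 4. In the pooled table every one of the 10 members changed over the 7 stages by edgeR's quasi-likelihood F test, with adjusted p from 2.1e-24 for Ina to 1.8e-09 for Map1b, where 88.8% of all genes tested did so.

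Mean levels of 9 members were highest at E13, and Nefh rose from E13 to E17. For Map1b the E13 libraries reached down to 319 CPM, close to the highest P60 library (309 CPM). The 10 members together held 0.67% ± 0.13 (SD) of all counts at E13 and 0.038% ± 0.003 at E17. Between these stages 9 of the 10 members fell, where 21.2% of all genes tested were lower, and 1 rose, where 14.2% were higher. The largest fall among them was that of Ina, from 595, 421, 558 and 465 CPM at E13 to 3.02, 1.9, 4.97 and 2.7 CPM at E17 (log2 fold change -7.31 ± 0.28 SE, edgeR adjusted p = 1.1e-17). All 4 E13 libraries lay above all 4 E17 libraries. Tubb3 fell by 6.25 ± 0.41 on the log2 scale, Stmn2 by 5.92 ± 0.30 and Gap43 by 5.33 ± 0.23.

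Among the neurofilament subunits, Nefl measured 731, 383, 732 and 675 CPM at E13 and 43.7, 46.1, 71.2 and 55.9 CPM at E17, a log2 fold change of -3.54 ± 0.20 (adjusted p = 2.3e-14). Nefm fell by 4.85 ± 0.29 on the log2 scale (adjusted p = 6.5e-14). The heavy subunit Nefh had 17.4, 13.3, 19 and 16.8 CPM at E13 and 33.6, 47.3, 37.8 and 38.7 CPM at E17. Its 4 E17 libraries were all above its 4 E13 libraries, and it rose by 1.24 ± 0.17 (log2, adjusted p = 6.7e-07). With library size as the only scaling the same change was 0.99 and just missed the 2-fold minimum.

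The smallest fall from E13 to E17 belonged to Map1b (log2 fold change -2.25 ± 0.23, adjusted p = 4.2e-09), the largest gene of the set by transcript length. Prph fell by 4.02 ± 0.24 and Uchl1 by 4.26 ± 0.26 on the log2 scale. Within E13 these members did not share an order of libraries. Map1b measured 1388, 655, 634 and 319 CPM in E13 replicates 1 to 4, whereas Tubb3 measured 370.0, 573, 862 and 1380.2 CPM and Uchl1 223, 238, 428 and 571 CPM. Replicates 1 and 4, at the ends of both orders, are the E13 libraries with the steepest GC trends, and the part of these trends in the spread was not tested. Without them and P1 replicate 1, a setting chosen after seeing the data, the same numbers were called: 9 members lower and 1 higher at E17.

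**Figure D1:**
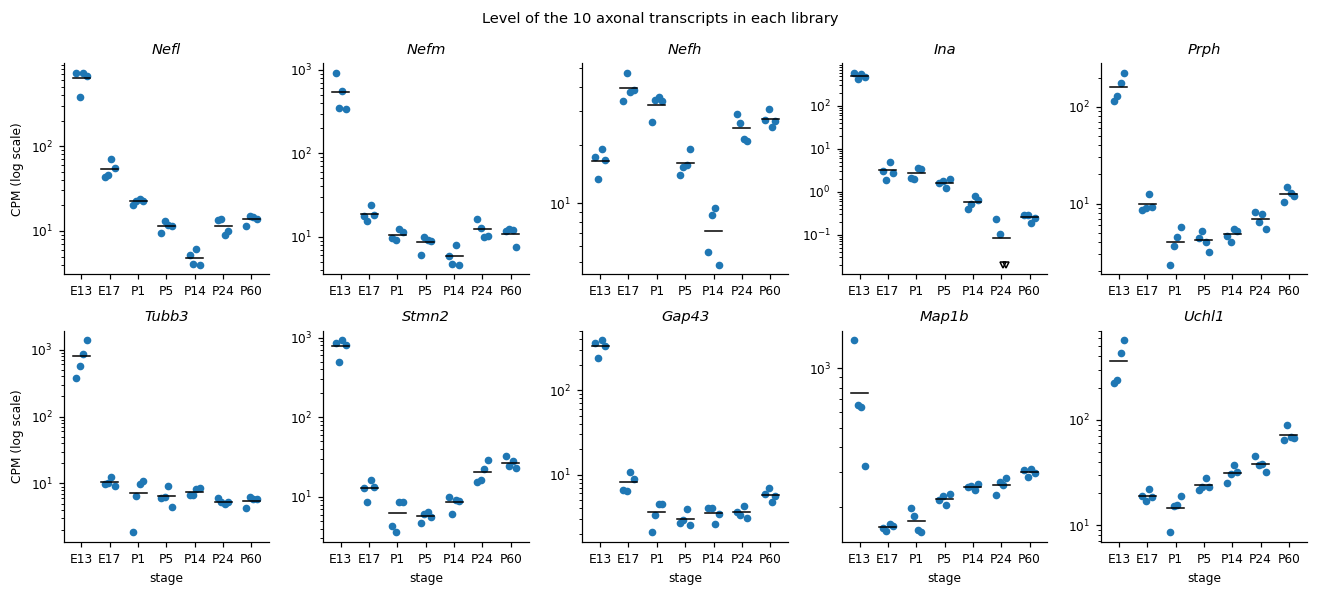
CPM (log scale) of each of the 10 members by stage, one panel per gene; points are the 4 libraries, black lines the stage means, and open triangles libraries at 0 counts. The scales differ between panels. 9 genes are highest at E13, Nefh is highest at E17 (39.4 CPM), and Ina is at 0 in 2 of the 4 P24 libraries.

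Markers of neuron cell bodies moved with this step. All 10 genes of a list of pan-neuronal RNA-binding and nuclear proteins, all 12 tested genes of a sensory neuron list, all 8 of a sympathetic neuron list and all 5 of a motor neuron list were lower at E17 than at E13, where 21.2% of all genes were. The summed level of the pan-neuronal list was between 549.9 and 926 CPM in the E13 libraries and between 17.8 and 21.1 CPM in the E17 libraries. Elavl3, an RNA-binding protein of neurons, went from 147 ± 11.7 to 1.14 ± 0.437 CPM, and Isl1, a transcription factor of sensory neurons, from 67.2 ± 29.8 to 0.756 ± 0.364 CPM. Sensory neuron markers summed to between 171 and 437 CPM at E13 and between 7.24 and 7.91 CPM at E17, and Pou4f1, a defining transcription factor of sensory neurons, was at 0.165 ± 0.0758 CPM. Markers of Schwann cells and of fibroblast-like cells moved the other way at this step. All 11 Schwann cell genes were higher at E17, with a summed mean of 1290.5 CPM at E13 and 6691 CPM at E17, as were 5 of 6 fibroblast-like cell genes, with 2708 and 23606 CPM, where 14.2% of all genes were higher. Other lists did not rise as a whole. Of 5 immune cell genes 4 were lower at E17 and 0 higher, with summed means of 206 CPM at E13 and 74.8 CPM at E17. Of 7 skeletal muscle genes 6 were lower and 1 higher, and of 7 endothelial cell and pericyte genes 1 was lower and 2 higher. The part of these lists in the fall of the 9 members was not tested. After E17 the pan-neuronal list was lower, between 7.13 and 7.71 CPM at P5 and between 8.89 and 13.3 CPM at P60. At most 1 of its 10 genes was at 0 counts in all 4 libraries of a stage. However, 4 of them had at most 3 counts in every library at P14 and at P60. Nova1 alone was at 7.56 ± 1.23 CPM at P60, where the list had a summed mean of 10.8 CPM. The sensory list lay between 5.96 and 7.05 CPM at P5 and between 13 and 17.8 CPM at P60. The sympathetic list went from 8.33 ± 2.21 CPM at E17 to 1.81 ± 0.586 CPM at P5 and 1.97 ± 0.822 CPM at P60. The motor neuron list went from 1.74 ± 0.265 CPM at E17 to 0.191 ± 0.0994 CPM at P14, where 4 of its 5 genes were at 0 counts in all 4 libraries, and to 0.0385 ± 0.0445 CPM at P24 and 0.478 ± 0.324 CPM at P60.

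**Figure D2:**
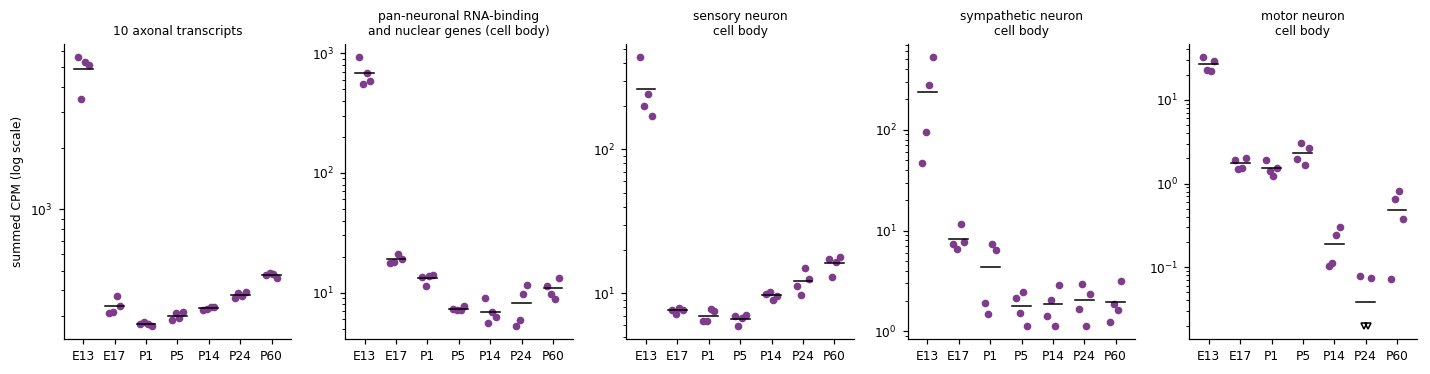
Summed CPM (log scale) by stage of the 10 members and of 4 lists of neuron cell body markers; points are libraries, lines stage means, and open triangles libraries at 0. Every list drops from E13 to E17, and from E17 on the members' sum, of which Map1b is the largest part, is highest at P60, although 6 of the 10 members have a lower mean there than at E17, while the motor neuron list is lowest at P24.

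From E17 to P1, 4 of the 10 members fell (Nefl, Prph, Stmn2 and Gap43), where 5.41% of all genes were lower, and none rose, where 6.31% were higher. Nefl fell by 1.27 ± 0.19 on the log2 scale to 20.4, 22.8, 24.1 and 22.6 CPM (adjusted p = 5.8e-06). Prph fell by 1.28 ± 0.23 and Gap43 by 1.18 ± 0.21. Stmn2 fell by 1.01 ± 0.26, with libraries of the stages overlapping. Its call was lost with no filter on low counts (-0.97), with the GC trend removed or only these stages fitted (-0.98 each), with limma-voom (-0.95), and without any one of E17 replicates 3 and 4 and P1 replicates 1 and 2 (-0.82 at the least change). Nefh measured 26.2, 34.1, 35.5 and 33.8 CPM at P1, and its change of -0.28 ± 0.17 did not pass the test (adjusted p = 0.229). Without P1 replicate 1 alone, the library with the steep GC trend, 2 members were called, Nefl and Prph, and Gap43 and Stmn2 (-0.88) fell short of the 2-fold minimum.

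From P1 to P5, 1 member was called lower, where 1.79% of genes were, and none higher, where 4.05% were. That member was Nefh (-1.01 ± 0.17, adjusted p = 1.1e-04), and Nefl lay just under the 2-fold minimum (-0.98 ± 0.19, adjusted p = 4.2e-04). Both had all 4 P5 libraries below all 4 P1 libraries. The Nefh call was lost with the GC trend removed (-0.98) and without any one of P1 replicates 2, 3 and 4 and P5 replicates 1, 2 and 3 (-0.99 to -0.95). Without P5 replicate 2 Nefl was called in its place (-1.05), without the other 5 no member was, and without P1 replicate 1 there were 2. With no fold minimum 4 members passed, where 17.6% of genes did. Uchl1 was higher at P5 by 0.70 ± 0.23, which did not reach the 2-fold minimum (adjusted p = 0.0374).

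From P5 to P14, 3 members fell, all of them subunits of intermediate filaments, where 4.91% of genes were lower, and none rose, where 7.11% were higher. Nefl fell from 9.59, 13.1, 11.6 and 11.3 CPM to 5.16, 4.07, 6.09 and 3.99 CPM (log2 fold change -1.24 ± 0.20, adjusted p = 2.4e-05). Nefh fell from 14.1, 15.5, 15.7 and 19.2 CPM to 5.62, 8.76, 9.52 and 4.82 CPM (-1.17 ± 0.18, adjusted p = 1.2e-05). For both genes the stages did not overlap. Ina fell by 1.43 ± 0.33 (adjusted p = 0.00136). Nefm, at 8.55 ± 1.71 and 5.8 ± 1.59 CPM, did not pass the test (-0.56 ± 0.27, adjusted p = 0.121), and the other 6 members had log2 fold changes between 0.20 and 0.58, none of them called.

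P14 was the stage with the lowest mean of Nefl, Nefm and Nefh. It was also the stage at which the 11 Schwann cell markers, which include the myelin gene Mbp, summed highest, to between 144191 and 169592 CPM, against 6296 to 7014 CPM at E17 and 71713 to 91456 CPM at P60. The part of this list in the course of the neurofilament transcripts was not tested. TMM scaling removes only a shift shared by most genes.

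From P14 to P24 the neurofilament transcripts rose together with Stmn2. Of the 10 members 4 rose, where 1.51% of genes were higher, and Ina fell, where 1.14% were lower. Nefh reached 29, 26, 21.5 and 21 CPM, all above its P14 libraries (log2 fold change 1.76 ± 0.18, adjusted p = 4.0e-07). Nefl rose by 1.25 ± 0.20 (adjusted p = 1.9e-04) and Nefm by 1.06 ± 0.27 (adjusted p = 0.015). Nefm lost its call, at 0.91 to 0.98, when P14 replicate 2, P14 replicate 4 or P24 replicate 1 was left out, and at 1.05 when the GC trend was removed (adjusted p = 0.156). Stmn2 rose from 10.1, 6.05, 9.11 and 8.89 CPM to 15.5, 16.1, 22.4 and 29 CPM (1.29 ± 0.26, adjusted p = 0.00204).

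Ina, by contrast, had 3, 2, 0 and 0 counts in the 4 P24 libraries, where the 3 counts of replicate 1 correspond to 0.237 CPM. Summed over libraries there were 54 counts at P14 and 5 at P24. Per total count this is a ratio of 9.21, with a 95% exact binomial interval of 3.71 to 29.5. The interval covers counting error in the summed counts only, not the spread between libraries, and the reads carried no molecular identifiers. The fitted change was called (adjusted p = 0.00215). At P60 Ina had 3 to 4 counts per library.

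From P24 to P60 no member was called by edgeR in either direction, where 2.55% of genes were higher and 3.41% lower. Unadjusted p was under 0.05 for 4 members, and adjusted p under 0.05 for 3, where 16.1% of genes passed with no fold minimum. These 3 were Uchl1 (0.93 ± 0.23, adjusted p = 0.00571), Prph (0.85 ± 0.23, adjusted p = 0.0102) and Gap43 (0.70 ± 0.23, adjusted p = 0.0346), each higher at P60 in all 4 libraries than in any P24 library. The DESeq2 Wald test called none either, and limma-voom called 1. Without P24 replicate 1 edgeR called 2, Ina and Uchl1.

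**Figure D3:**
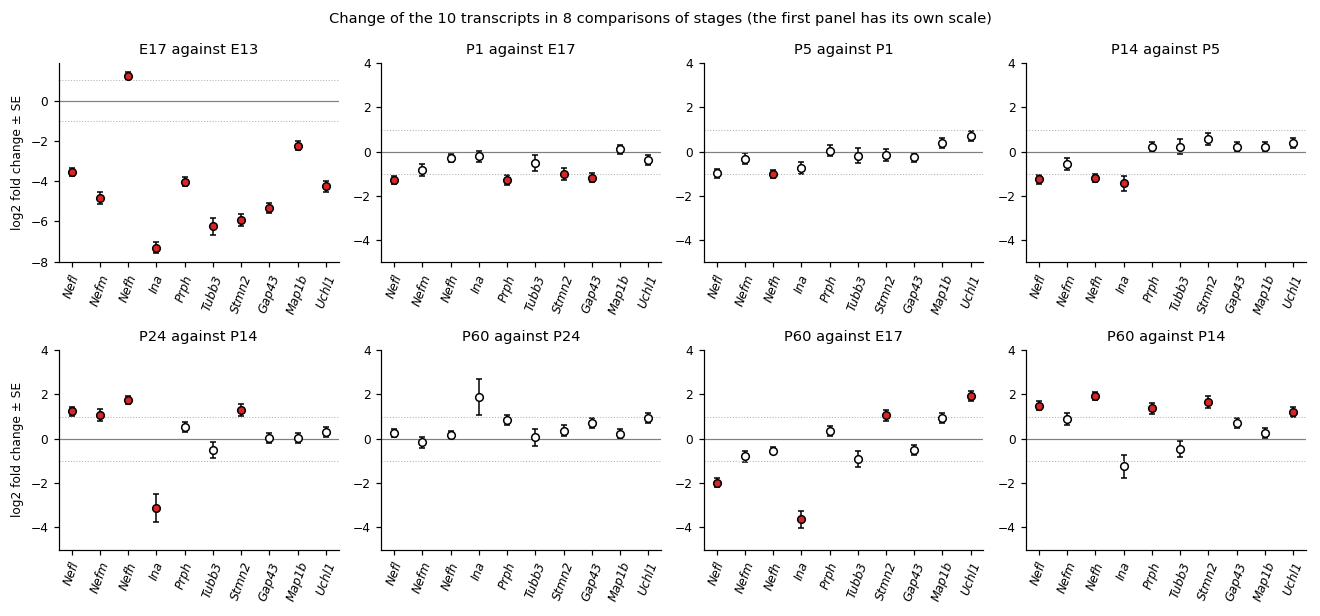
Log2 fold change ± SE of the 10 members in the 8 comparisons, the first stage named over the second; red points were called (adjusted p under 0.05 and at least 2-fold), white ones were not, and dotted lines mark the 2-fold minimum. The first panel has a wider scale. The red points are mostly below 0 up to P14 and mostly above 0 in P24 against P14 and P60 against P14.

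From P14, the stage with the lowest means of Nefl, Nefm and Nefh, to P60, 5 members rose. Among all genes tested 7.1% were higher. No member was called lower, where 5.81% of genes were. Nefh rose by 1.93 ± 0.18 on the log2 scale, Stmn2 by 1.65 ± 0.26, Nefl by a factor of 2.84, Prph by 1.37 ± 0.23 and Uchl1 by 1.22 ± 0.23. The median of all 10 members was 1.06 and that of all genes tested -0.02. Tubb3 went from 7.56 ± 0.93 to 5.56 ± 0.923 CPM and was not called (-0.45 ± 0.37, adjusted p = 0.406). Ina, at 0.595 ± 0.177 and 0.255 ± 0.0495 CPM, was not called either, but was called lower by the DESeq2 Wald test (-1.23, adjusted p = 0.034) and by edgeR without the E13 libraries (-1.22, adjusted p = 0.0488).

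P60 against E17 asked what remained of the fetal levels in the young adult nerve. Here 2 members were lower, where 17.5% of genes were, and 2 were higher, where 22.2% were, a share of called members close to that of all genes. With no fold minimum 9 passed, where 64.3% of genes did. With library size as the only scaling, which moved the median of all genes to -0.31, there were 4 lower and 1 higher, as Nefm (-1.11, adjusted p = 6.1e-04) and Tubb3 (-1.22, adjusted p = 0.00407) were also called lower. Nefl fell by 1.98 ± 0.19 on the log2 scale (adjusted p = 8.5e-10), and Ina by 3.64 ± 0.40 (adjusted p = 9.1e-09), from between 36 and 128 counts per library to 3 or 4. Stmn2, at 32.5, 24.1, 27.9 and 22.9 CPM at P60, rose by 1.07 ± 0.25 (adjusted p = 6.4e-04). This call was lost with library size as the only scaling (0.76), without E17 replicate 2 (0.94) and without P60 replicate 1 (0.96).

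Uchl1 rose the most of the 10 from E17 to P60. It measured 18.9, 17.1, 21.8 and 18.3 CPM at E17 and 64.4, 89.9, 68.4 and 67.6 CPM at P60, with no overlap (1.93 ± 0.24, adjusted p = 7.5e-08). Its means at P5, P14 and P24 were 23.8 ± 2.83, 31.1 ± 4.97 and 38.1 ± 5.56 CPM, and each of these stages overlapped with the next lower one. Map1b was at 157 ± 5.2 CPM at E17, 252 ± 7.14 CPM at P14 and 299 ± 11.7 CPM at P60, a change from E17 of 0.93 ± 0.23 that stayed under the 2-fold minimum (adjusted p = 8.2e-04).

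The order of stages therefore differed between members. Nefl was ordered E13, E17, P1, P60, P24, P5, P14 from high to low, and of the 6 pairs of neighbors P60 with P24 and P24 with P5 overlapped. Nefh was ordered E17, P1, P60, P24, E13, P5, P14, and the libraries overlapped between E17 and P1, P1 and P60, P60 and P24, and E13 and P5. Nefm overlapped in 5 of its 6 pairs, all except E13 with E17. Prph had its lowest means at P1 and P5 (4.06 ± 1.43 and 4.19 ± 0.858 CPM), and from E17 on its highest was P60 (12.5 ± 1.89 CPM), which overlapped with E17 (9.86 ± 1.81 CPM). Stmn2 and Gap43 had their lowest means at P5, at 5.72 ± 0.719 and 3.03 ± 0.62 CPM. Tubb3 held between 5.38 and 10.4 CPM in its stage means from E17 on, and P14, P1, P5, P60 and P24 overlapped with their neighbors. Its lowest single value was 1.86 CPM in P1 replicate 1, and the other 3 P1 libraries lay between 6.54 and 10.9 CPM.

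Levels of different genes can be compared only per length, here as RPKM, CPM per kilobase of the gene's merged exons. At E13 Tubb3 had the highest mean (426 ± 235 RPKM), followed by Uchl1 (224 ± 102 RPKM) and Gap43 (217 ± 41.4 RPKM), and Nefh the lowest (4.16 ± 0.595 RPKM). The libraries of the first of these genes overlapped. In E13 replicate 1 Tubb3 (198 RPKM) lay below Gap43 (235 RPKM) and Nefl (216 RPKM). At P60 Uchl1 was first (44.5 ± 7.16 RPKM), Map1b next to it (18.9 ± 0.74 RPKM) then Nefh (6.82 ± 0.648 RPKM), and Ina was last (0.0787 ± 0.0153 RPKM). Nefh and Prph (6.27 ± 0.944 RPKM) overlapped within their spread.

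The same scale gave the make-up of the 5 neuronal intermediate filament transcripts, as each gene's share of their summed RPKM. Ina made up 30.5% ± 3.17 (SD) of the sum at E13, 2.73% ± 0.814 at E17 and 0.415% ± 0.0893 at P60. Nefh made up 0.808% ± 0.0816 at E13 and 28.5% ± 5.48 at E17, and 35.8% ± 2.52 at P60. Nefl had its largest share at E17 (45.4% ± 3.85) and held 21.2% ± 1.53 at P60, while Prph went from 14% ± 0.676 to 32.7% ± 2.02 between these stages. The sum itself was 522 ± 109 RPKM at E13, 35.1 ± 5.4 RPKM at E17, 6.83 ± 1.17 RPKM at P14 and 19.1 ± 1.95 RPKM at P60.

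**Figure D4:**
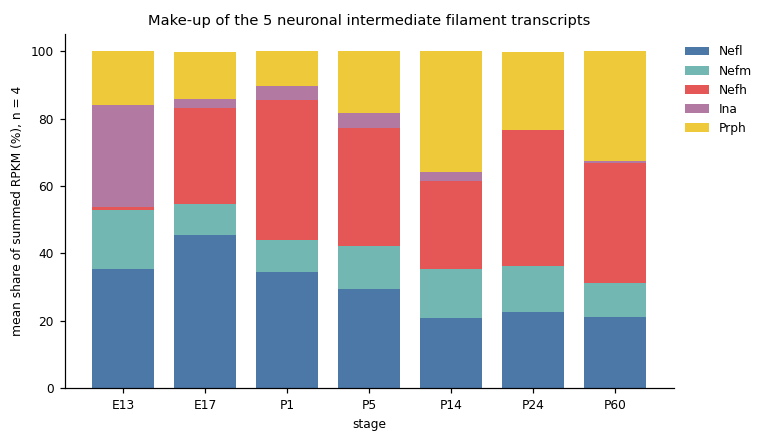
Stacked bars of the mean share (%) of the summed RPKM of 5 neuronal intermediate filament transcripts at each stage, n = 4 libraries. Ina takes 30.5% at E13 and under 1% at P24 and P60, and Nefh goes from 0.808% at E13 to 41.6% at P1.

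To compare members free of the scaling between libraries, each was set against Nefl, the core subunit, within the same library, as the log2 ratio of CPM + 0.5. A two-sided exact permutation test of 4 against 4 libraries was used, for which 0.029 is the smallest possible p, and p was adjusted over the 18 tests. From E17 to P60, 8 of the 9 ratios differed, all with p at this smallest value and adjusted p = 0.043, and all 8 were higher at P60. The ratios are not independent of each other, since all have Nefl below the line, whose own level fell between these stages. The Uchl1 ratio went from -1.47 ± 0.22 (SD) to 2.36 ± 0.16, the Stmn2 ratio from -2.05 ± 0.26 to 0.94 ± 0.37, the Map1b ratio from 1.55 ± 0.27 to 4.40 ± 0.20 and the Prph ratio from -2.39 ± 0.12 to -0.13 ± 0.08. The Nefh ratio rose by 1.41 and the Nefm ratio by 1.16. The Ina ratio differed by -0.29 (exact permutation p = 0.2), and this value depended on the pseudocount, with 0.21 at 1 CPM and, at 0.1 CPM, -1.17, which passed the threshold (adjusted p = 0.04) in the direction opposite to the other 8.

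From P14 to P60 a different set of ratios moved. The ratios of Tubb3 (by -1.85), Ina (by -1.95), Map1b (by -1.18) and Nefm (by -0.56) to Nefl were lower at P60, each with exact permutation p = 0.029 and adjusted p = 0.043. The ratios of Prph, Stmn2 and Uchl1 differed by -0.14, 0.18 and -0.22, with exact permutation p of 0.26, 0.49 and 0.26, and those of Nefh and Gap43 by 0.47 and -0.78 (p of 0.11 and 0.086), which does not show that they were equal. With Nefm as the reference gene, Nefh and Stmn2 were higher at P60 (1.04 and 0.74, adjusted p = 0.047) and the Map1b ratio lost its call (-0.62, adjusted p = 0.086). From E17 to P60 that reference ended the calls of Nefh (0.25, adjusted p = 0.42), Gap43 (0.33, adjusted p = 0.18) and Tubb3 (-0.08, adjusted p = 0.77), and made one for Ina (-1.44, adjusted p = 0.047).

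**Figure D5:**
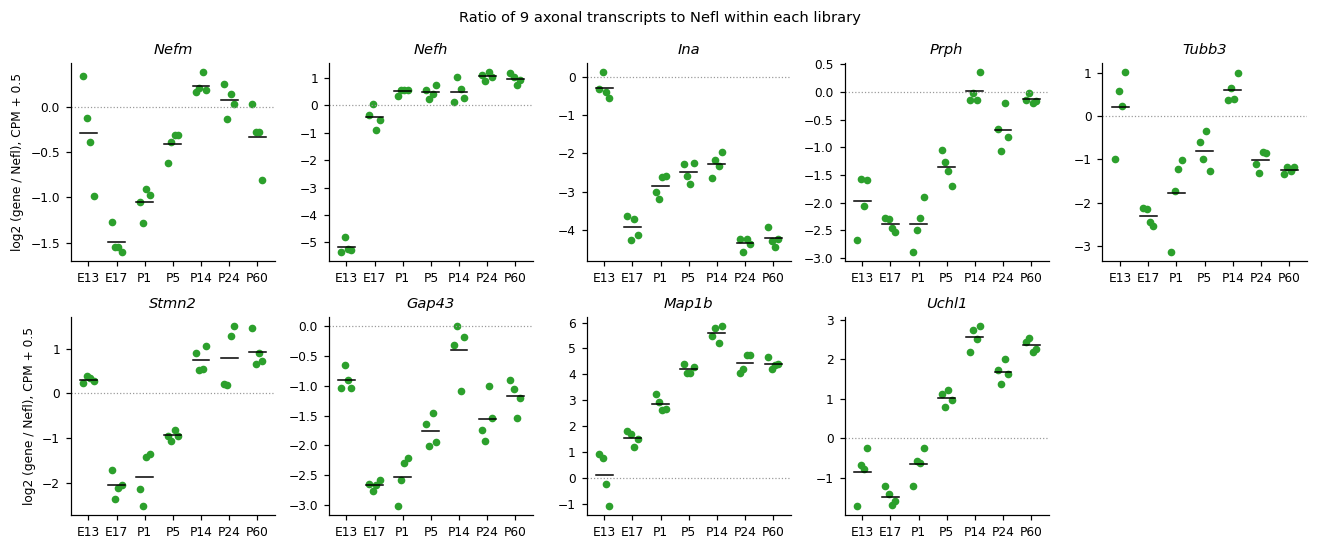
Log2 ratio of 9 members to Nefl within each library, by stage, from CPM + 0.5; points are the 4 libraries and lines the means. The dotted line at 0 marks a CPM equal to that of Nefl, with no correction for gene length. All mean ratios except that of Ina lie higher at every stage from P5 on than at E17, and Nefl itself was lower at these stages than at E17.

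Other genes of the pathway were read from lists. Of 19 other neuronal cytoskeleton and growth genes, 16 were lower and 1 higher at E17 than at E13, where 21.2% of all genes were lower and 14.2% higher, and 9 were lower and 3 higher at P60 than at E17 (list median -0.77, all genes 0.00). Among all genes 22.2% were higher and 17.5% lower at P60 than at E17, and the list counts between these stages that follow are to be read against these shares. Among these, Crmp1, a mediator of growth cone guidance, went from 7.18 ± 1.46 CPM at E17 to 0.263 ± 0.191 CPM at P60 (-4.72 ± 0.47, adjusted p = 1.2e-09), Dclk1, a microtubule-associated kinase, fell by 4.66 ± 0.20 and Basp1, a growth cone membrane protein, went from 26.6 ± 1.41 to 1.45 ± 0.404 CPM. Tuba1a, an α-tubulin and the most abundant of the list, was at 1180.0 ± 55.6 and 1172 ± 151 CPM (-0.01 ± 0.17, adjusted p = 0.97). The β-tubulin Tubb2b and Marcks, an actin-binding membrane protein, fell by 2.57 ± 0.22 and 3.68 ± 0.22.

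Of 11 axonal transport motors, 2 were higher and 1 lower at P60 than at E17. Kif5a, the neuronal kinesin heavy chain, fell by 1.84 ± 0.11 on the log2 scale, from 452 ± 47.3 to 126 ± 8.82 CPM, with its lowest mean at P14 (78.7 ± 5.77 CPM). Kif1a and Kif3c rose by 1.05 ± 0.15 and 2.15 ± 0.11. Kif1b changed by 0.50 ± 0.14 (adjusted p = 0.00392) and the dynein heavy chain Dync1h1 changed by 0.34 ± 0.10, both under the 2-fold minimum (adjusted p = 0.00375 for the latter). Of 18 presynaptic and pan-neuronal genes, 15 were lower at E17 than at E13 (21.2% of all genes), and 9 were higher and 3 lower at P60 than at E17 (list median 0.92). Sncg rose by 4.00 ± 0.23 on the log2 scale, and Cplx1, a regulator of vesicle fusion, by 3.89 ± 0.29. Nsg2, a neuronal endosomal protein, rose by 3.73 ± 0.22, and Vamp2, a synaptic vesicle protein, changed by 0.66 ± 0.10, under the 2-fold minimum. Of the 9 tested intermediate filament genes of other nerve cells, 4 were higher and 2 lower at P60 than at E17. Vim, encoding vimentin, was at 2644 ± 37 and 2446 ± 203 CPM (-0.11 ± 0.10, adjusted p = 0.328), Nes, encoding nestin, rose by 1.33 ± 0.13, and Lmnb1, encoding a nuclear lamin, fell by 5.73 ± 0.16. Gfap, a filament of non-myelinating Schwann cells, went from 0.443 ± 0.191 to 9.51 ± 2.04 CPM (4.40 ± 0.44), and Lmna did not pass the test (0.29 ± 0.31, adjusted p = 0.414). Krt18, an epithelial keratin, was called higher, from 0.0917 ± 0.15 to 0.614 ± 0.171 CPM (2.87 ± 0.89, adjusted p = 0.00659).

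Among lists of other nerve cells, 2 of 6 fibroblast-like cell genes were higher and 3 lower at P60 than at E17, with sums between 22594 and 25119 CPM at E17 and between 6701 and 9076 CPM at P60. Of 7 endothelial cell and pericyte genes 4 were higher, and of 5 immune cell genes 1 was. Of 7 skeletal muscle genes 5 were lower, with sums of at most 23.7 CPM at E17 and 4.68 CPM at P60. Of 11 Schwann cell genes 3 were higher and 4 lower. Among the cell body lists, Calca, a neuropeptide gene of sensory neurons, went from 0.193 ± 0.182 CPM at E17 to 3.6 ± 1.38 CPM at P60 (4.26 ± 0.53, adjusted p = 6.8e-08).

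For each member, the protein-coding genes with the most similar course were found by Pearson's correlation of log2 CPM over the 28 libraries, as a description. These points share stages and libraries, and with E13 in the set they are ordered mainly by the E13 libraries. The nearest gene was Rab15 for Nefl (r = 0.976), Gabra5 for Nefm (0.976), S1pr3 for Nefh (0.814), Nnat for Ina (0.976), Gng3 for Prph (0.978), Ywhag for Tubb3 (0.987), Tagln3 for Stmn2 (0.982), Mab21l2 for Gap43 (0.982), Pgm2l1 for Map1b (0.973) and Stmn3 for Uchl1 (0.982). Over the 24 libraries from E17 on the nearest genes were others. S1pr3 (0.968) and Kif5a (0.946) were then nearest to Nefl, and S1pr3 followed the same bend, from 606 ± 43.6 CPM at E17 to 95.3 ± 7.86 CPM at P14 and 219 ± 14.4 CPM at P60. Cacnb3, a calcium channel subunit, was nearest to Uchl1 (0.977), with 15.4 ± 1.95 CPM at E17 and 71.2 ± 6.35 CPM at P60.

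Among the members themselves the correlation of Nefl with Nefh was 0.26 over 28 libraries and 0.86 over the 24 without E13, and that of Nefm with Nefh 0.07 and 0.84. Those of Nefl with Uchl1 and with Map1b went from 0.67 and 0.55 to -0.38 and -0.72. Stmn2 and Prph correlated at 0.97 and 0.81.

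In the genome (GRCm38, GENCODE M21) Nefl and Nefm lie on chromosome 14, from 68083863 to 68089095 on the plus strand and from 68082590 to 68124846 on the minus strand, so that the annotated span of Nefm covers Nefl. Ina (chromosome 19) overlaps with Nt5c2 on the opposite strand, and Tubb3 (chromosome 8) with Gm20388 on the same strand. Gm20388 was assigned 147 ± 50.6 CPM at E13 and 91 ± 5.7 CPM at P60, and Tubb3 796 ± 438 and 5.56 ± 0.923 CPM. Whether the counting used strand or reads shared by several genes is not given in the sources used here, so the levels of Nefl, Nefm, Ina and Tubb3 carry this uncertainty, as does Tubb3 as a member of a family of similar tubulin genes. Nefh, Prph and Stmn2 overlap with no other annotated gene.

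RefSeq's table of promoters (GRCm38.p6) held 5 of the 10 members: Ina, Prph, Tubb3, Map1b and Uchl1. Nefl, Nefm, Nefh, Stmn2 and Gap43 were not matched. The 250 bases before the RefSeq start are shown for 3 members with unlike courses after E17, Ina, which fell, Prph, which fell at P1 and rose after P14, and Uchl1, which rose. Capitals mark matches on either strand to the 7 motifs searched, which are spelled out after the sequences. The last 30 bases of the Uchl1 window lie inside the gene as GENCODE annotates it, and the other 2 windows lie outside.
Ina, chr19:47014431-47014680, plus strand: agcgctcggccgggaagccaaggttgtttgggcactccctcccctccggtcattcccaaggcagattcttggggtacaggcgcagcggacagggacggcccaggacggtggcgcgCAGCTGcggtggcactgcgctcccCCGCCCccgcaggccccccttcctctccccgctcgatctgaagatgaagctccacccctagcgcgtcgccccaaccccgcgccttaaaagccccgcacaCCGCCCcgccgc
Prph, chr15:99054924-99055173, plus strand: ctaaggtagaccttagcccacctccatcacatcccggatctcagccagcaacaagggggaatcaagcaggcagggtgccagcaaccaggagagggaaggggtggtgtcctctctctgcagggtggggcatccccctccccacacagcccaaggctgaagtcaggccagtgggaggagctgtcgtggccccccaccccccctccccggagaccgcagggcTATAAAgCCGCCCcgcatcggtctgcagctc
Uchl1, chr5:66675871-66676120, plus strand: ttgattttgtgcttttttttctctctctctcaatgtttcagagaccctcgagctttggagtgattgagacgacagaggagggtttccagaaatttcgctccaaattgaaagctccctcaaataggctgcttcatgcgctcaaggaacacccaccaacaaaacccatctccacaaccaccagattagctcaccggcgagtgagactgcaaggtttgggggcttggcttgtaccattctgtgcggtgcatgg

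GC content was 70.8% in the Ina window, 65.2% in that of Prph and 48.8% in that of Uchl1. Of the 2 windows not shown, that of Tubb3 starts at 123411303 and runs past the GENCODE start of the gene at 123411424. Part of it thus lies inside the gene. The Map1b window lies outside the gene, and the last 20 bases of its RefSeq entry, after the RefSeq start, were not found in a GENCODE transcript of Map1b. The GC box GGGCGG was found 2 times for Ina and for Tubb3 and 1 time for Prph and for Map1b, and is held by 32.7% of all 32851 windows of this length. The TATA box TATAAA was found for Prph and Map1b (12.4% of windows), the E box CAGCTG for Ina (13%) and CCAAT for Tubb3 (33.8%). None of the 5 held the other E box CACGTG (6.02% of windows). The same was true of the cyclic AMP response element TGACGTCA, held by 1.55% of windows, and of TTCAGCACC, the left part of a neuronal silencer element, held by 0.301%.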

How the data were processed

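The values are raw read counts per gene as deposited. Per the methods, the authors trimmed single-end reads from strand-marking TruSeq libraries, aligned them with STAR 2.6.1c and took gene counts with featureCounts, without normalization. The submitters' processing notes name the build GRCm38.p5, while the methods name a human build. Of 41605 identifiers, 41519 (99.79%) were matched to GENCODE M21, and 86 were kept without a symbol.

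Genes were filtered with filterByExpr and libraries scaled by TMM. All 28 libraries entered 1 quasi-likelihood fit (edgeR 4.0.16, R 4.3.3) with stage as the only term. A gene was called at a Benjamini-Hochberg adjusted p under 0.05 over 17700 genes and a fold change of at least 2. The SE is the log2 fold change over the square root of F. The script was tested on simulated data. Ratios were tested by enumerating every split of the libraries, with p as double the smaller tail. The binomial interval came from scipy 1.17.1.

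Members and lists were chosen with earlier results of these data known. All members are named, and from each list the up to 3 genes highest in mean CPM and up to 3 with the largest called change from E17 to P60. For lists of cell types and cell bodies most are left to counts and summed levels. Some genes the rule names are not reported here. One gene of a sensory list was not matched. None of the 42 replicate pairs was identical (chi-square per degree of freedom 5.21 to 292.88). Same-numbered libraries correlated between -0.0593 and 0.292 in their deviations, so numbers were not taken as pairs. Alternatives were other scalings, filters, tests (limma 3.58.1, DESeq2 1.42.0), sample sets, a replicate block, GC correction, no fold minimum, other pseudocounts and each library left out.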

Additional observations from a re-analysis of the deposited data

Results flagged for a closer look

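In 70 groups of 4 libraries (10 members at 7 stages), 3 held a library far from the other 3 by Dixon's criterion, where chance alone gives about 1 in 20. Nefl was at 383 CPM in E13 replicate 2, and between 675 and 732 CPM in the other E13 libraries. This is the E13 library with the most skeletal muscle marker RNA (581 CPM), and the part of this in the value was not tested. Nefm was at 7.6 CPM in P60 replicate 4, and between 11.8 and 12.3 CPM in the others. Without that library its change from P14 to P60 was 1.04 and passed the threshold (adjusted p = 0.00688), as it also did without P14 replicate 3 (1.10, adjusted p = 0.00549) and with library size only (1.08, adjusted p = 0.00313). Uchl1 was at 89.9 CPM in P60 replicate 2, and between 64.4 and 68.4 CPM in the others.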

How the results depend on the processing

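Of 1537 values of member changes under the alternatives, 1462 kept direction and side of the threshold, 27 lost the call, 32 gained it and 16 turned direction. The cause of the changes below was not tested.

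With no fold minimum, 4 members were called for P5 against P1, 3 for P60 against P24 and 9 for P60 against E17, where 17.6%, 16.1% and 64.3% of all genes were. For P5 against P1, 2 were called with library size only, with no filter on low counts, with limma-voom, without the E13 libraries and without the 3 libraries with the steepest GC trend, and 0 with the GC trend removed. For P60 against P24, 1 was called with library size only and with limma-voom. For P1 against E17, 2 were called without those 3 libraries. Leaving out 1 library gave 2 to 4 members for P1 against E17, 0 to 2 for P5 against P1 and 0 to 2 for P60 against P24.

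The replicate block gave 0 members for P5 against P1 and changed no other count. Over 8 comparisons that share libraries, 15 of 32 same-numbered pairs correlated best with their own number, where 1 in 4 would give 8. This is a hint from the data only, since the labels do not say what the numbers stand for. Whether the numbers follow the sex of the mice was not tested. The exact paired test of the ratios over 4 pairs cannot pass the threshold and was not run. For the ratios, leaving out a library gives no p under the threshold, so only values were compared.

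The following changed direction. Map1b, P1 against E17, -0.01 with library size only. Ina, P1 against E17, -0.39 to 0.13 without a library. Prph, P5 against P1, -0.15 with library size only, -0.03 with limma-voom, -0.13 without the 3 libraries, and -0.13 to 0.27 without a library. Without a library, Tubb3, P5 against P1, was -0.49 to 0.09, and Stmn2, P5 against P1, was -0.33 to 0.05. Gap43, P24 against P14, was 0.00 with the replicate block and, without a library, as low as -0.11, and Map1b was -0.01 to 0.08. Tubb3, P60 against P24, was -0.02 to 0.16. The Ina ratio to Nefl from E17 to P60 was 0.21 at a pseudocount of 1 CPM. With Nefm as the reference, the Tubb3 ratio, called in the main setting (1.08), was -0.08 from E17 to P60, and from P14 to P60 the Prph and Uchl1 ratios were 0.42 and 0.34.

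Depth limits Ina most, with 8 to 20 counts per library at P14 and at most 4 from P24 on.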
